A study of Mus musculus with 8 samples.

Results

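The genes for the receptors of glutamate and GABA were followed across 8 RNA-seq libraries of mouse brain. They were chosen by name from the deposited count table: protein-coding genes with symbols of the Gria, Grid, Grik, Grin, Grm, Gabr and Gabbr families, with at least 10 counts in 2 or more libraries. Of 48 genes whose symbols matched, 42 met the count minimum, and all 42 were among the 17182 genes tested, out of 54532 in the table. One of the 42, Grid2ip, encodes a receptor-binding protein and is not a receptor, which leaves 41 receptor genes.

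Brain RNA was taken from wild-type (WT) mice and from mice labelled as having cerebral amyloid angiopathy (CAA), in which amyloid-beta collects in the walls of cerebral vessels. Each genotype was either mock-treated or put under chronic restraint stress, and all animals were perfused with PBS. This gave 4 groups of 2 libraries, named by genotype and treatment, and the study asked how chronic stress acts on CAA. The sources used here do not give the allele or promoter behind CAA, the strain, the age or the part of the brain. The labels do not say that the libraries of a group came from separate animals, so a p-value measures the spread between these libraries. By their sex, the pair in WT mock and the pair in CAA stress each came from different animals. In the other groups the spread may be technical.

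Total counts ran from 17275201 to 18894657 per library, and the 42 genes took 0.531% to 0.628% of them. Sex and region markers differed between libraries, also within groups, and olfactory bulb markers went partly with genotype. Counts of Xist and of Y-linked genes marked WT mock replicate 1 and CAA stress replicate 1 as female and the other 6 libraries as male. WT mock replicate 1 (-2.10) and CAA mock replicate 2 (-1.92) were low in the mean centred log2 CPM of 12 striatal markers, which was 0.06 to 1.02 elsewhere, and are called striatum-poor. Olfactory bulb markers (9 genes) split the libraries 4 and 4: WT mock replicate 1, both CAA mock libraries and CAA stress replicate 1 lay at -1.90 to -1.12, the rest at 1.12 to 1.68. The 10 general neuronal markers, among them Rbfox3 and Snap25, were present in all 8 libraries and their mean level moved only from -0.10 to 0.12.

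Glutamate excites most neurons of the brain through AMPA, NMDA and kainate receptors, which are ion channels built of 4 subunits, and tunes them through metabotropic (mGlu) receptors coupled to G proteins. GABA, the main inhibitory transmitter, opens the chloride channel of GABA-A receptors, whose subunits differ between brain regions and between synaptic and extrasynaptic sites, and acts more slowly through GABA-B receptors. The mix of subunits sets how fast a receptor closes, which ions it passes and which drugs it binds.

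Promoter sequence was available from RefSeq (GRCm38.p6) for 27 of the 42 genes, in 35 windows of the 250 bases before a start site. The sequences of 4 genes that the comparisons turn on are printed because their windows end at the gene start of the count table and hold no exon base. They run 5′ to 3′ on the strand of the gene, at chr2:25319188-25319437 (minus strand) for Grin1, chr3:80802836-80803085 (minus) for Gria2, chr7:57510060-57510309 (minus) for Gabra5 and chrX:72824928-72825177 (plus) for Gabrq. Capitals mark matches, on either strand, to the GC box GGGCGG or the E box CACGTG.
Grin1: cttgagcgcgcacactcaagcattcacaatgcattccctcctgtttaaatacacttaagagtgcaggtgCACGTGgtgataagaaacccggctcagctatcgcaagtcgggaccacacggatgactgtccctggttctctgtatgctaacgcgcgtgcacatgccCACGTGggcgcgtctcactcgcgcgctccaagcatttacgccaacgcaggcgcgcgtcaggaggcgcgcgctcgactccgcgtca
Gria2: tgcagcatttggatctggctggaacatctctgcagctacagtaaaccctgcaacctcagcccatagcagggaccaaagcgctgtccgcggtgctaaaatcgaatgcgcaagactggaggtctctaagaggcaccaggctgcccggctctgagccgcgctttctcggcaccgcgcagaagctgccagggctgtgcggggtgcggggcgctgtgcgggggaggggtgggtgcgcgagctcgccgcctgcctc
Gabra5: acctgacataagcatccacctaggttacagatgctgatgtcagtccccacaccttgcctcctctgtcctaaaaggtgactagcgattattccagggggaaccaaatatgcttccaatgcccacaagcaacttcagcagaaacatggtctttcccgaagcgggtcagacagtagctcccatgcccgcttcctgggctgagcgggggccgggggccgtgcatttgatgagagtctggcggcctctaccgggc
Gabrq: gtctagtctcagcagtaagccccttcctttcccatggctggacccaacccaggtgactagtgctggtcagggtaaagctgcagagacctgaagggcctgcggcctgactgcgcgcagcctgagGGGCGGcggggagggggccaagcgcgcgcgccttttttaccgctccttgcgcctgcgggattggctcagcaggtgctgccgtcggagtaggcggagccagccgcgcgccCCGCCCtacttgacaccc
The Grin1 window held 2 E boxes and the Gabrq window 2 GC boxes, while the windows of Gria2 and Gabra5 held neither. Over the 27 matched genes, Grid2ip included, 19 of 35 windows (54.3%) held the GC box, against 32.7% of all 32817 windows of the same length. These windows were also richer in G and C, with a median of 62.4% against 52.4%. The E box was in 1 of the 35 (2.86%) against 6.02% of all windows. The EGR site GCGGGGGCG and the cAMP response element TGACGTCA, which were in 2.57% and 1.55% of all windows, matched none of the 35. TTCAGCACC, the left part of the RE1 element that the neuronal gene repressor REST binds, was in the Grm2 window alone (0.302% of all windows). Each motif was searched on both strands and counted on its own, and the letters of the GC box and the EGR site can overlap in a sequence.

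Levels were compared between genes as FPKM, the deposited counts scaled to gene length and library size. Gabbr1, the subunit of the GABA-B receptor that binds GABA, had the highest mean level of the 42 genes (97.4 ± 5.71 FPKM, SD, n = 8; range 91.4 to 109.6). Gria1, an AMPA receptor subunit, had a high and even level, at 56.7 ± 3.85 FPKM (SD, n = 8; range 50.8 to 62.2). The lowest were Gabrr2, a rho subunit known mainly from retina, at 0.478 FPKM, Gabre, the epsilon subunit, at 0.379 FPKM, and Grid2ip at 0.351 FPKM. The order had no break in it: for every gene in this order, the range over the 8 libraries overlapped that of the next one, so no neighbours in the order were separated.

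**Figure D1:**
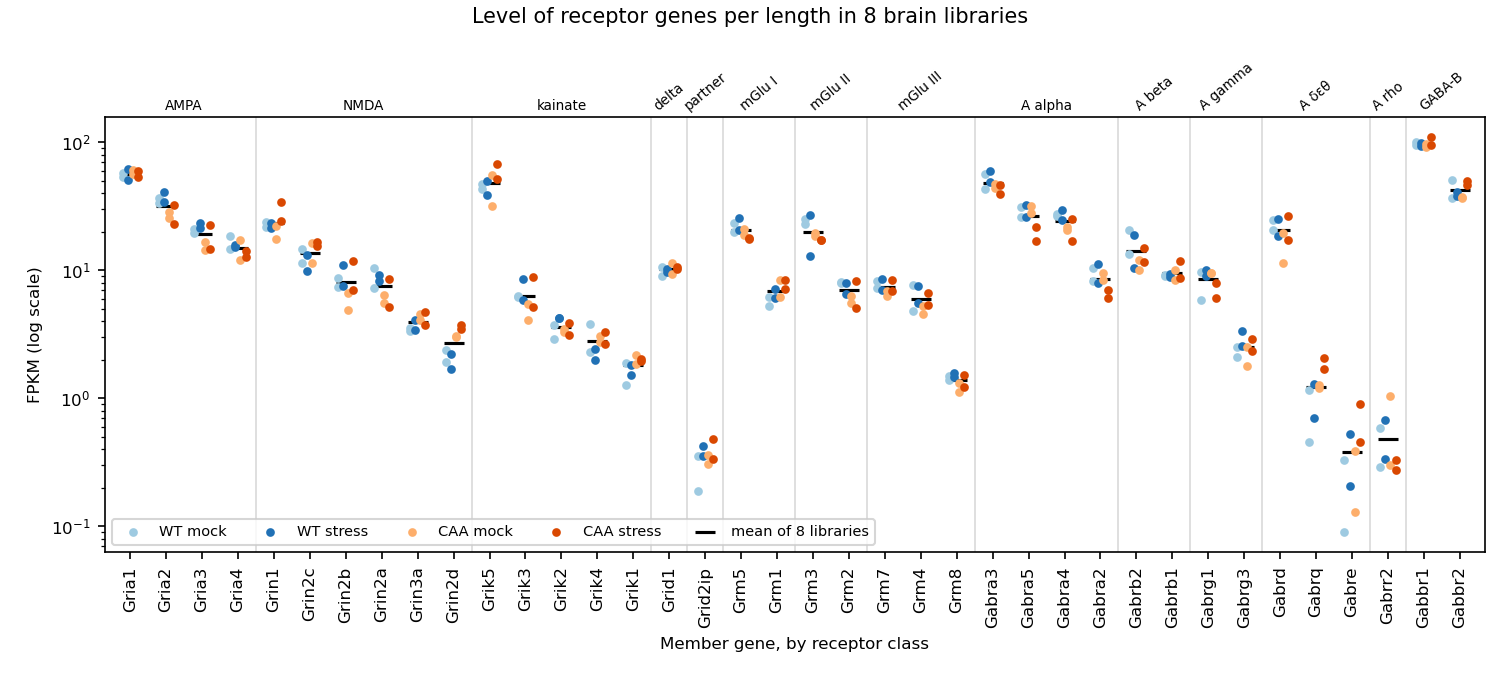
FPKM on a log axis for 38 of the 42 genes, grouped by receptor class, with a point for each of the 8 libraries coloured by group and a bar for their mean. Gabbr1 stood highest at a mean of 97.4 FPKM, and the epsilon (Gabre) and rho (Gabrr2) genes lay below 1.04 FPKM in every library.

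In many classes 1 gene took the larger share of the summed FPKM. Among the AMPA subunits Gria1 made up 46.5% ± 4.44 (SD, n = 8), ahead of Gria2, the subunit that keeps calcium out of the channel, at 25.7% ± 3.17. Of the NMDA genes the obligatory subunit Grin1 made up 39.3% ± 1.94 and Grin2d, which gives slowly closing channels, 4.57% ± 1.31. Grik5, a kainate subunit that works only with Grik1, Grik2 or Grik3, made up 76.4% ± 3.02 of the kainate class. Grid1, a delta receptor widely present in forebrain, made up 91.0% ± 1.24 of the delta class.

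The mGlu classes were led by Grm5 in group I (74.9% ± 4.62, 20.6 FPKM), Grm3 in group II (73.6% ± 6.03, 20.0 FPKM) and Grm7 in group III (50.6% ± 5.26, 7.43 FPKM; all SD, n = 8). In the GABA-A classes Gabra3 took 26.6% ± 3.57 of the alpha genes, Gabrb2 19.0% ± 3.62 of the beta genes and Gabrg1 16.7% ± 2.93 of the gamma genes (SD, n = 8). Gabrd, the subunit of extrasynaptic receptors that respond to ambient GABA, had 20.4 ± 4.96 FPKM (SD, n = 8), between 11.5 in striatum-poor CAA mock replicate 2 and 26.4 in CAA stress replicate 1.

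The 6 genes below the count minimum were Grin3b (0 to 12 counts, with 1 library at 10 or more), Gabrr1 (1 to 7), Gabra6 (0 to 8), Gabrr3 (0 to 4), Grm6 (0 to 1) and Gabrp (0 in all 8). Gabra6 is the alpha subunit of cerebellar granule cells and Grm6 the receptor of retinal ON bipolar cells. Just inside the minimum were Gabrr2 with 11 to 39 counts and Gabre with 8 to 81 counts.

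Averaged over mock and stress, no receptor gene passed the test between CAA and WT (0 of 42, against 0.0116% of all genes tested, edgeR adjusted p under 0.05). Of the 42 genes 16 had a higher and 26 a lower estimate in CAA (38.1% higher, against 50.2% of all genes), with a median log2 fold change of -0.13 against 0.00 over all genes. That median was -0.05 without CAA stress replicate 1, -0.07 in male libraries alone and -0.19 without CAA stress replicate 2, the last being the lowest with any library left out. At an unadjusted p under 0.05 there were 9 (21.4%), against 8.38% of all genes: 2 higher (4.76% against 4.25%) and 7 lower (16.7% against 4.12%). The 2 were Grin2d and Gabrq, and among the 7 were Gria2, Grin2a, Gabra4, Gria3 and Gabra2. In bulk RNA, fewer cells of a type and less RNA per cell cannot be told apart. The olfactory bulb markers went partly with genotype, and their part in these estimates was not tested.

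Grin2d (chromosome 7, 45831883 to 45878378, minus strand, mm10) encodes the GluN2D subunit, found mostly in interneurons and deep brain regions in the adult. Its TMM-normalised CPM (counts scaled to library size) in the 4 WT libraries were 16.0 and 12.9 in mock and 11.4 and 14.9 in stress. In CAA they were 20.4 and 20.6 in mock and 25.4 and 23.5 in stress, without overlap between the genotypes. Such a separation upward was seen for 1 of the 42 genes (2.38%) and for 2% of all genes tested. The means were 13.8 ± 2.05 and 22.5 ± 2.39 CPM (SD, n = 4), a log2 fold change of 0.70 ± 0.14 (SE). In edgeR this did not pass (adjusted p = 0.424). It passed in DESeq2 (adjusted p = 0.0264, where 49 genes, 0.364%, were called) and in edgeR without a filter on low counts (adjusted p = 0.0043, 223 genes called); over all alternatives the adjusted p ran from 0.0043 to 0.965. The estimate was 0.76 in male libraries alone and 0.77 without the striatum-poor pair, and it lay between 0.61 and 0.80 when each library was left out in turn. Markers of oligodendrocyte precursors (7 of 7 tested) also separated the genotypes, at -0.38 to -0.07 in WT and 0.02 to 0.34 in CAA. Brainstem markers (9 genes, 3 of them tested) lay at -1.58 to 0.34 in WT and -0.52 to 2.61 in CAA. Markers of inhibitory interneurons (10 of 10 tested) overlapped, at -0.20 to 0.29 in WT and -0.56 to 0.32 in CAA. The part of any of these lists in the Grin2d values was not tested. Grin2d shares 643 exon bases (9.66% of its exons) with Gm45441 on the other strand, which had at most 51 counts against 208 to 465 for Grin2d. Strand use in the counting is not stated, and without it reads from the shared bases cannot be told apart.

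Gria2 (chromosome 3, 80681450 to 80802835, minus strand) gave the opposite order. Its CPM in WT were 522 and 571 in mock and 642 and 532 in stress, and in CAA 446 and 403 in mock and 361 and 511 in stress. Every CAA library lay below every WT library, which held downward for 1 of the 42 genes (2.38%) and for 2.76% of all genes. The highest CAA value was in CAA stress replicate 2, the 1 CAA library rich in olfactory bulb markers (1.12, against -1.62 to -1.12 in the other CAA libraries). The lowest WT value was in WT mock replicate 1, the 1 WT library poor in them (-1.90, against 1.54 to 1.68). The part of those markers was not tested. The log2 fold change was -0.40 ± 0.13 (SE; means 567 ± 54.7 and 430.1 ± 64.1 CPM, SD, n = 4; edgeR adjusted p = 0.538). Its share of the summed AMPA FPKM was 27.9% ± 2.71 in WT and 23.6% ± 1.89 in CAA, and that of Gria1 43.2% ± 3.41 and 49.7% ± 2.52 (SD, n = 4). Gria1 itself differed little, at 341.7 ± 30.0 and 351 ± 17.7 CPM (SD, n = 4).

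All 5 alpha and all 3 gamma genes of the GABA-A class had lower estimates in CAA. Gabra4, the partner of delta subunits in extrasynaptic receptors of forebrain, stood at -0.36 ± 0.14 (SE; edgeR adjusted p = 0.578), Gabra2 at -0.31 ± 0.14 and Gabra3 at -0.24 ± 0.13 (SE). GABA-B stood at 0.02 for both Gabbr1 and Gabbr2 (SE 0.10 and 0.12). Among NMDA genes 4 estimates were higher and 2 lower, with Grin2a, which gives fast channels in mature synapses, at -0.46 ± 0.17 (SE; edgeR adjusted p = 0.578). Both group II and all 3 group III mGlu genes, which mostly restrain transmitter release, had lower estimates, between -0.28 and -0.12. None of these single genes passed the test. Markers of excitatory forebrain neurons (12 of 12 tested) had mean centred levels of -0.09 to 0.49 in WT and -0.29 to 0.27 in CAA. Snap25, a neuronal release protein, lay at 2158 to 2505 CPM in WT and 1667 to 1986 in CAA. Rbfox3 overlapped between the genotypes, at 190 to 211 CPM in WT and 128 to 255 in CAA. The mean of the 10 general neuronal markers overlapped too, at -0.04 to 0.12 in WT and -0.10 to 0.05 in CAA. The part of these markers in the receptor estimates was not tested.

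**Figure D2:**
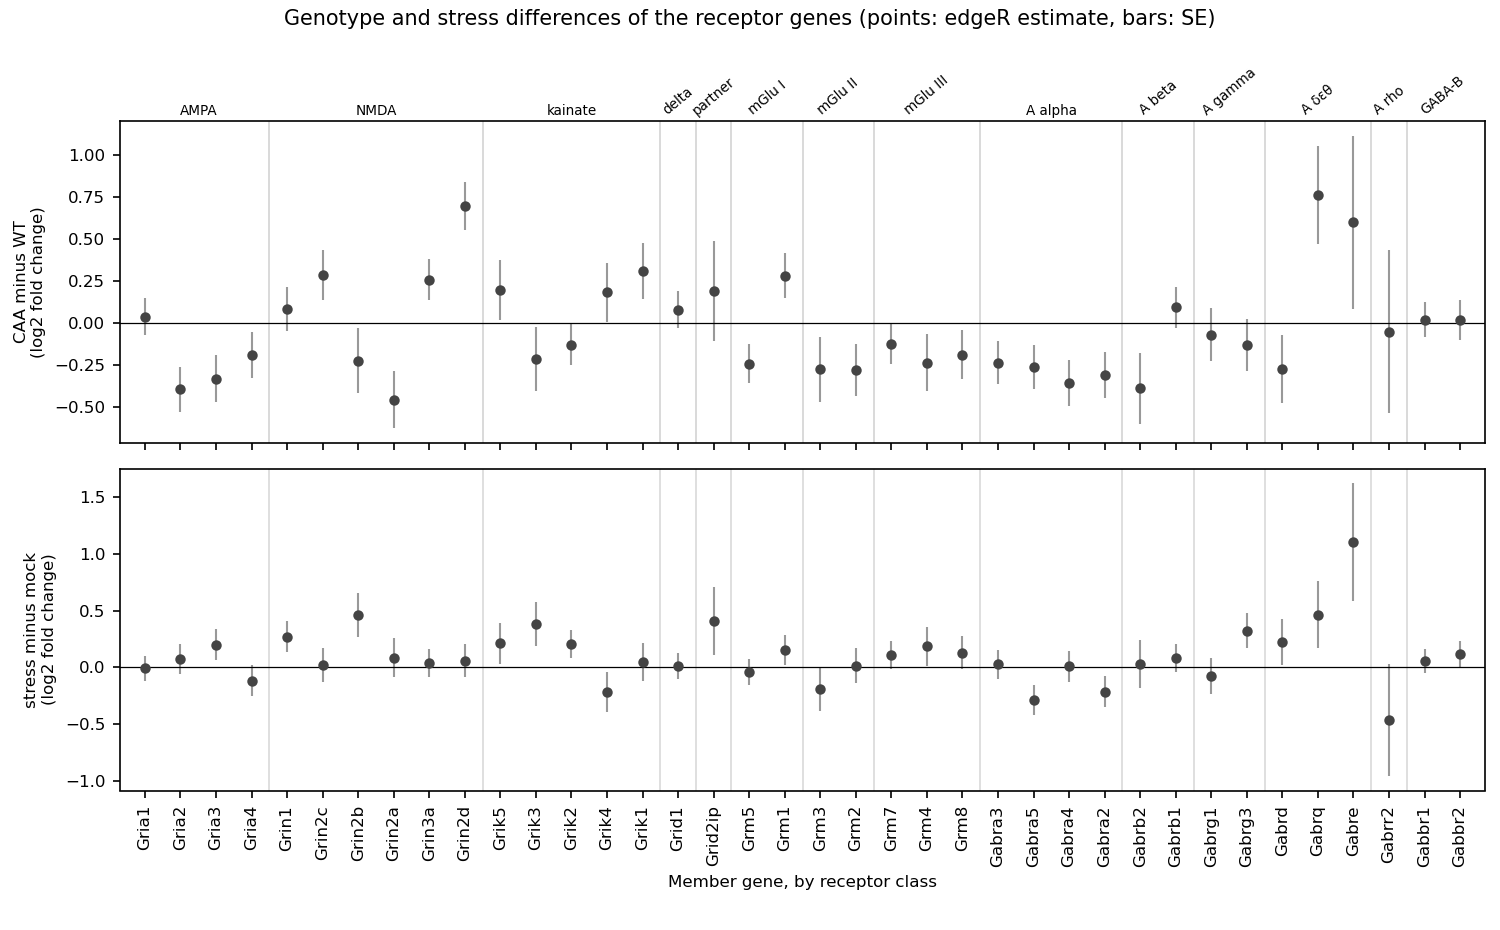
Log2 fold change of 38 of the 42 genes, with SE bars, for CAA minus WT averaged over treatment (upper) and for stress minus mock averaged over genotype (lower), from edgeR. In the upper panel Grin2d (0.70) and Gabrq (0.76) stood highest and the alpha genes shown lay below 0, and in the lower panel Gabre (1.10) had the highest estimate and a wide error.

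Split by treatment, 0 of 42 genes passed in mock libraries or in stressed libraries (0.0116% of all genes in each, edgeR). Under mock, 2 genes had an unadjusted p under 0.05 (4.76%, against 4% of all genes). Grin2d stood at 0.50 ± 0.20 (SE) on the log2 scale there. Grin2a lay at 187 and 132 CPM in WT mock and 101 and 115 in CAA mock (log2 fold change -0.56 ± 0.24, SE; edgeR adjusted p = 0.998). Gabrb2, a beta subunit of GABA-A receptors, lay at 133 and 86.4 CPM in WT mock and 64.5 and 76.9 in CAA mock (-0.63 ± 0.30, SE). Both estimates leaned on WT mock replicate 1, a striatum-poor female library with the highest excitatory neuron markers (0.49, against -0.29 to 0.27 in the others). Without it Grin2a and Gabrb2 each came to -0.29, and the part of those markers was not tested.

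Under stress 9 genes (21.4%) had an unadjusted p under 0.05, against 8.22% of all genes, 3 higher (7.14% against 4.14%) and 6 lower (14.3% against 4.09%). DESeq2 called 0 of 40 under stress (0.0817% of all genes) and 0 of 41 under mock (0.13%). Grin2d stood 0.89 ± 0.20 higher (SE, log2 scale; edgeR adjusted p = 0.579) in CAA. Gabra5, an alpha subunit of extrasynaptic receptors in hippocampal pyramidal cells, lay at 77.8 and 97.9 CPM in WT stress and 50.7 and 66.0 in CAA stress (-0.59 ± 0.19, SE; edgeR adjusted p = 0.579). All 5 alpha genes were again lower, between -0.59 and -0.35, and 5 of 6 NMDA genes higher. The 2 CAA stress libraries differ in sex, and without CAA stress replicate 1 the median over the 42 genes was 0.02, against -0.12 with it.

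Stress within WT gave small estimates, with a median absolute log2 fold change of 0.13 over the 42 genes and 0.14 over all genes. None of 42 passed (0% of all genes in edgeR), and 0 had an unadjusted p under 0.05, against 1.59% of all genes; DESeq2 also called 0. The smallest p-values belonged to 3 genes. Grik2, a kainate subunit, had 39.1 and 50.0 CPM in mock and 56.7 and 56.8 in stress (0.35 ± 0.17, SE). The estimate was 0.18 without WT mock replicate 1 and 0.53 without replicate 2. Grik4, an accessory kainate subunit of the hippocampus, had 22.9 and 13.9 CPM in mock and 11.99 and 14.6 in stress, which overlapped. Its estimate of -0.47 ± 0.25 (SE) shrank to -0.07 without WT mock replicate 1. Gabrg3, a rarer gamma subunit, had 25.2 and 30.0 CPM in mock and 31.0 and 40.2 in stress (0.37 ± 0.22, SE), and its estimate was 0.17 without WT stress replicate 2.

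Within CAA the median absolute log2 fold change with stress was 0.22 over the 42 genes and 0.23 over all genes, and again none passed (0% of all genes in edgeR; 6 of 42, 14.3%, at an unadjusted p under 0.05, against 6.94% of all genes; DESeq2 called 0 of 42, against 0.0802%). Gabra5 (chromosome 7, 57407672 to 57510059, minus strand) lay at 84.3 and 94.3 CPM in CAA mock and 50.7 and 66.0 in CAA stress. The log2 fold change was -0.61 ± 0.19 (SE; edgeR adjusted p = 0.696), and -0.43 in male libraries. In WT the same gene had 93.4 and 77.8 CPM in mock and 77.8 and 97.9 in stress. Hippocampal markers (10 of 10 tested) lay at 0.30 and 1.05 in CAA mock and 0.24 and -0.60 in CAA stress. In WT they lay at 0.93 and -0.69 in mock and -0.96 and -0.28 in stress, and their part in the Gabra5 values was not tested. Gabra2 (-0.45 ± 0.20, SE) and Gabrg1 (-0.44 ± 0.22, SE) also had lower estimates in stressed CAA brains.

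The NMDA core subunit Grin1 (chromosome 2, 25291181 to 25319187, minus strand) went the other way. It had 215 and 172 CPM in CAA mock and 236 and 334 in CAA stress, against 231 and 215 in WT mock and 211 and 229.6 in WT stress. The log2 fold change in CAA was 0.56 ± 0.19 (SE; edgeR adjusted p = 0.696). Grin2b, the NMDA subunit that prevails early in development and in the adult forebrain, had 168 and 123 CPM in CAA mock and 177 and 297 in CAA stress (0.71 ± 0.28, SE; edgeR adjusted p = 0.696). Grin2b passed in edgeR without a filter on low counts (adjusted p = 0.0318; 0.0318 to 1 over its alternatives). The share of all genes called in that setting is not reported here, so this call cannot be set against it. For both genes CAA stress replicate 2 was the highest of all 8 libraries, and without it the estimates were 0.29 for Grin1 and 0.28 for Grin2b. The same library was the highest for 11 of the 42 genes, the others being Grik3, Grik5, Gabrb1, Gabre, Gabrq, Grm2, Grin2c, Grin3a and Grid2ip. WT stress replicate 1 was the highest for 10 and WT mock replicate 1 for 7, and the share over all genes was not computed. Among CAA libraries CAA stress replicate 2 had the highest excitatory neuron markers (0.27, against -0.29 to -0.17) and the lowest oligodendrocyte markers (-0.65, against 0.10 to 0.78). It had the lowest share of mitochondrial counts (6.10%, against 7.89% to 9.99%), and without it the median over the 42 genes turned from 0.11 to -0.05. Any part of RNA or cell composition in this was not tested. Grin1 shares 1307 exon bases (13.5%) with its antisense gene Grin1os, which had at most 82 counts.

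**Figure D3:**
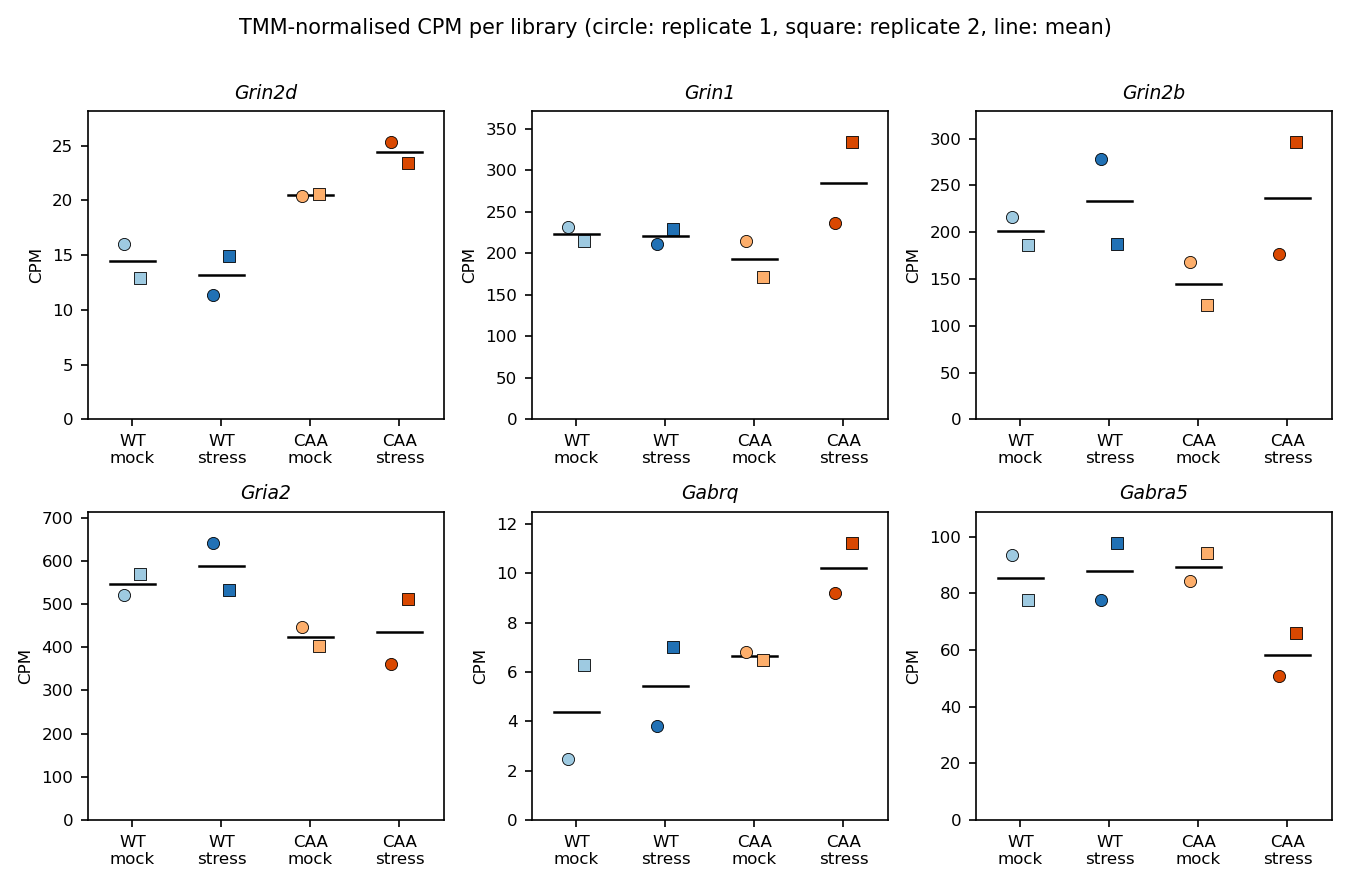
TMM-normalised CPM of 6 receptor genes in each of the 8 libraries, by group, with a line at the group mean and each axis starting at 0. Grin2d and Gria2 separated the 4 CAA from the 4 WT libraries, Gabra5 was low in the 2 CAA stress libraries (50.7 and 66.0), and Grin1 and Grin2b were highest in 1 of those 2.

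Averaged over genotype, stress gave 0 of 42 genes past the test (0% of all genes) and 2 (4.76%) at an unadjusted p under 0.05, against 3.82% of all genes; DESeq2 called 0 of 42, against 0.0102%. No receptor gene had its 4 stress libraries all above or all below its 4 mock libraries (0.96% and 0.867% of all genes did). Of the 42 genes 31 (73.8%) had higher estimates, against 50.6% of all genes, with a median of 0.06 against 0.00 over all genes. Between libraries of the same group, the library medians of the 42 genes had a pooled SD of 0.08 on the log2 scale. The highest estimate was that of Gabre at 1.10 ± 0.52, and Gabrq and Grin2b both stood at 0.46 (SE 0.29 and 0.19). Gabra5 stood at -0.29 ± 0.13 (SE; edgeR adjusted p = 0.92 for each). Grin2b came to 0.25 without CAA stress replicate 2 and 0.30 without WT stress replicate 1, and Gabra5 to -0.13 in male libraries and -0.18 without the striatum-poor pair.

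The interaction asks whether the stress difference was itself different in CAA. None of 42 genes passed (0% of all genes), and 3 (7.14%) had an unadjusted p under 0.05, against 3.46% of all genes; DESeq2 called 0 of 42, against 0.0034%. Gabra5 had an interaction of -0.65 ± 0.26 (SE). Gabrg1, a gamma subunit also made by astrocytes, lay at 46.7 and 76.6 CPM in WT mock, 79.7 and 71.8 in WT stress, 76.3 and 75.6 in CAA mock, and 63.4 and 48.2 in CAA stress (-0.74 ± 0.32, SE). Its estimate was -0.43 without WT mock replicate 1 and -1.14 without WT mock replicate 2. Gabbr2, the GABA-B subunit that couples to the G protein, lay at 345 and 249 CPM in WT mock, 274 and 258 in WT stress, 250.2 and 247 in CAA mock, and 313 and 338 in CAA stress (0.55 ± 0.24, SE). Without WT mock replicate 1, its estimate was 0.29. All 3 had an edgeR adjusted p of 0.995. The comparisons share libraries with each other, so their estimates are not independent.

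Most GABA-A genes sit in clusters, taken here as genes within 1.5 Mb of the next. On chromosome 5 (70751047 to 72149037), the averaged CAA estimates of Gabrg1, Gabra2, Gabra4 and Gabrb1 were -0.07, -0.31, -0.36 and 0.09. The last 2 share 46 exon bases on opposite strands. Those of Gabrg3 and Gabra5, neighbours on chromosome 7, were -0.13 and -0.26. On the X chromosome (72255999 to 72842602), Gabre and Gabrq stood at 0.60 and 0.76, and Gabra3 between them at -0.24. Neighbours on chromosomes 5 and X thus had estimates of both signs, and none of these genes passed the test. The estimates of Gabrg1 (SE 0.16) and Gabrb1 (SE 0.12) were smaller than their SE, and Gabre had an SE of 0.52. Clusters on other chromosomes are not reported here.

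**Figure D4:**
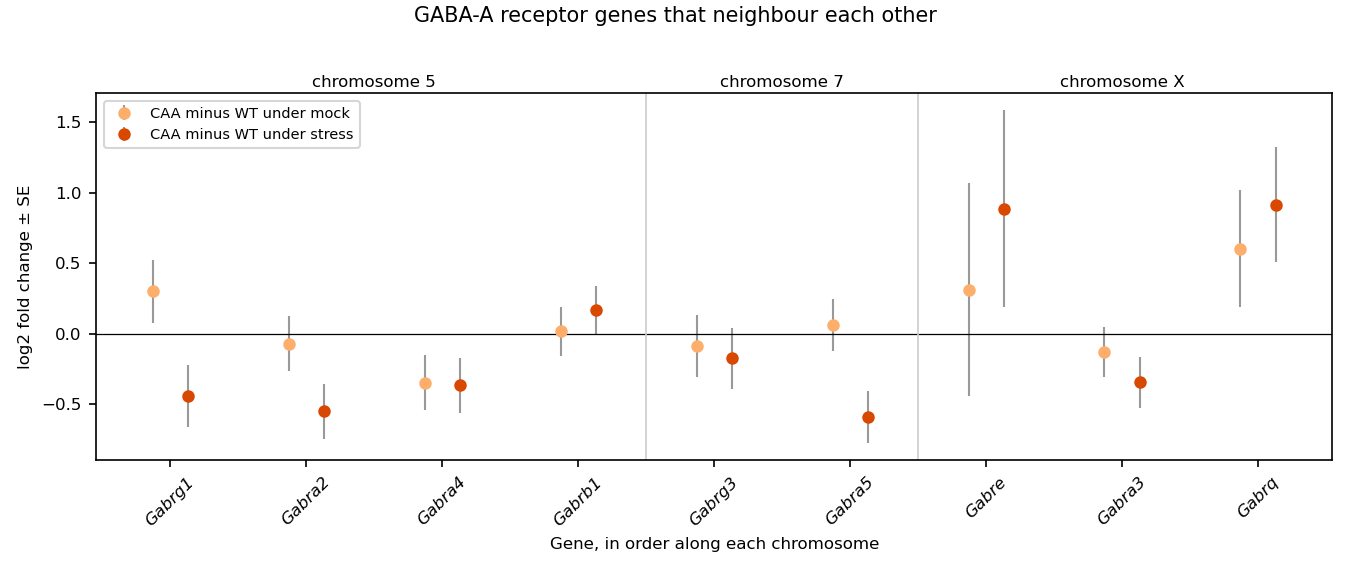
Log2 fold change with SE of GABA-A genes on 3 chromosomes, in order along each chromosome, for CAA minus WT under mock (light) and under stress (dark). Gabra4 lay below 0 in both, Gabra5 lay at 0.06 under mock and -0.59 under stress, and Gabre and Gabrq lay above 0 with the widest errors.

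Gabre and Gabrq, the epsilon and theta subunits, are known from hypothalamus and brainstem nuclei and varied most between libraries. Gabre ranged 10.1-fold and Gabrq 4.55-fold from the lowest to the highest library, where the median ratio was 1.71 over the 42 genes and 1.64 over 14913 tested genes with a mean of at least 1 CPM. Gabre had 0.43 and 1.57 CPM in WT mock, 0.985 and 2.54 in WT stress, 1.87 and 0.62 in CAA mock, and 2.18 and 4.34 in CAA stress. Gabrq had 2.47 and 6.29 CPM in WT mock, 3.83 and 7 in WT stress, 6.83 and 6.48 in CAA mock, and 9.21 and 11.3 in CAA stress. Both were lowest in WT mock replicate 1 and highest in CAA stress replicate 2. The 14 hypothalamic markers, of which 12 were tested, were likewise low in WT mock replicate 1 (-2.46), came to 0.68 in CAA stress replicate 2 and -1.42 in CAA mock replicate 2, and lay at -0.12 to 1.66 in the other 5. Their part in the Gabre and Gabrq values was not tested. The averaged stress estimate of Gabre was 0.48 without the striatum-poor pair, and 0.68 to 1.70 with each library left out in turn. Gabrr2 ranged 3.73-fold, highest in CAA mock replicate 2 (2.20 CPM), and Grid2ip 2.57-fold (1.29 to 3.32 CPM).

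**Figure D5:**
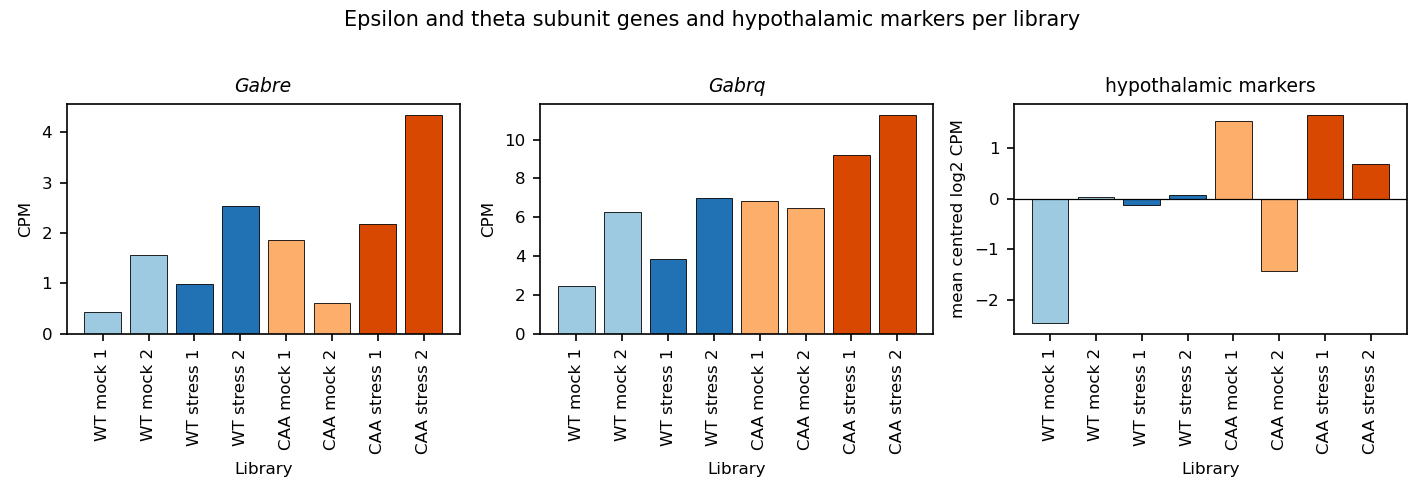
CPM of Gabre and Gabrq and the mean centred log2 CPM of the hypothalamic markers in each of the 8 libraries, coloured by group. WT mock replicate 1 was lowest in all 3 panels, while CAA stress replicate 2 was highest for both receptor genes and the third highest for the markers.

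Genes that work with the receptors were read from 11 lists, and none of their genes passed the test in either averaged comparison. In the CAA comparison both kainate auxiliary genes were lower, with Neto2, which slows kainate receptor desensitisation, at 103 ± 9.23 CPM in WT and 74.9 ± 3.96 in CAA (SD, n = 4; -0.46 ± 0.11, SE; edgeR adjusted p = 0.508). Of the 14 scaffold genes of glutamate synapses 9 had lower estimates (median -0.13), led by Dlg2 at -0.34 ± 0.10 and Homer2 at -0.34 ± 0.11 (SE). Of 12 AMPA auxiliary genes 7 were lower (median -0.08). The glutamate transporter and metabolism list split 7 and 7 with a median of -0.02. In the list for supply of the NMDA co-agonists D-serine and glycine, 5 of 7 genes were higher (median 0.56), led by the glycine transporter Slc6a9 at 0.65 ± 0.21 (SE). Slc6a9 was highest at 33.6 CPM in CAA mock replicate 2 and next at 32.4 in replicate 1 of CAA stress. The same pair was the highest in brainstem markers (2.61 and 1.32) and in astrocyte markers (12 of 12 tested, 0.49 and 0.20; WT -0.36 to 0.04), and the part of either was not tested.

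On the inhibitory side, 7 of 9 genes for GABA synthesis, release and uptake had higher estimates in CAA (median 0.10), while the GABA-making enzyme Gad1 stood at -0.37 ± 0.15 (SE). Gad1 lay at 285 to 301 CPM in WT mock replicate 1, both CAA mock libraries and CAA stress replicate 1, which are poor in olfactory bulb markers. In the libraries rich in those markers, CAA stress replicate 2 among them, it lay at 392 to 536 CPM. The part of those markers was not tested. The 12 genes for inhibitory scaffolds and GABA-A assembly had a median of 0.02, with the scaffold gephyrin (Gphn) at -0.15 ± 0.10 (SE). Of 8 effector genes of GABA-B and mGlu receptors 6 were lower (median -0.28), led by the potassium channel gene Kcnj3 at -0.41 ± 0.14 and Plcb1 at -0.35 ± 0.12 (SE). The 4 GABA-B auxiliary genes had a median of -0.06, the 4 chloride transport genes 0.07 and the 5 glycine receptor genes 0.31.

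For averaged stress the medians of these 11 lists lay between -0.34 for co-agonist supply and 0.23 for GABA synthesis, release and uptake. The smallest p-values in the list of AMPA auxiliary genes and among scaffolds were those of Shisa6 (-0.86 ± 0.27, SE) and of Homer3 (-0.73 ± 0.21, SE). Both had an edgeR adjusted p of 0.92. Both were highest in the striatum-poor pair, WT mock replicate 1 and CAA mock replicate 2, which are both mock libraries. Shisa6 had 30.0 and 33.2 CPM there, against 11.3 to 22.0 elsewhere. Homer3 had 12.75 and 11.3 CPM there, against 5.31 to 9.11 elsewhere. The part of striatal content in these estimates was not tested.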

How the data were processed

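RNA was extracted from brain with RNeasy columns and sequenced as Illumina libraries, per the labels' protocols. The deposited values are raw counts per gene, for which the submitters' processing notes name HISAT2 2.0.5, featureCounts 1.5.0-p3 and mm10. The sources used here do not give strand use or the annotation release. All 42 genes had the same coordinates in GENCODE M21. The deposited FPKM were used only for levels per length and for the limma alternatives.

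The test was that of edgeR 4.0.16 (R 4.3.3): filterByExpr (minimum count 10, total 15), TMM, and a robust quasi-likelihood fit of the 4 group means over all 8 libraries (common biological coefficient of variation 0.206 on 4 residual degrees of freedom). The 7 comparisons were two-sided, with Benjamini-Hochberg adjustment over 17182 genes and a threshold of 0.05. An exact permutation test cannot go below p = 0.333 for 2 libraries against 2, or 0.0286 for 4 against 4. No pair was a repeat within counting noise (8.11 to 67.1 chi-square units per degree of freedom). Marker levels are means of log2 CPM (prior count 2), after each gene was centred on its own mean.

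The scripts were tested on simulated data. Alternatives were DESeq2 1.42.0, DESeq2 size factors in edgeR, no filter, a replicate block, the compared libraries alone, limma 3.58.1 on log2 FPKM (pseudocount 1 or 0.1), a sex term, male libraries, omission of the striatum-poor pair, and leaving out each library. Genes given in every library were the 3 with the smallest p in each comparison and the 5 with the widest range at a mean of at least 1 CPM; the leading gene of each class and genes near the count minimum were also named. Of each of the 11 lists up to 2 genes with the smallest p were named. Further genes that these rules name are not reported here, and 4 of the 42 are left out of the figures. The genes, lists and alternatives were chosen with earlier results of these data known.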

Additional observations from a re-analysis of the deposited data

How the results depend on the processing

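The 21 estimates examined for single genes kept their direction in all 369 alternatives run, and 365 stayed on the same side of the threshold. The exceptions were Grin2d averaged over treatment with no filter on low counts (0.71) and in DESeq2 (0.70), Grin2d under stress with no filter (0.90), and Grin2b for stress in CAA with no filter (0.70). Each made the count of receptor genes called 1 in place of 0. Without the filter edgeR called 223 genes for CAA averaged in place of 2, and DESeq2 called 49. The totals without the filter for CAA under stress and for stress in CAA are not reported here. The 21 estimates were picked for the smallest p-values in libraries that the alternatives reuse. A kept direction was therefore likely beforehand, and these counts do not measure how stable the estimates are. Sizes did change, as for Grik4 with stress in WT, from -0.47 to -0.07 without WT mock replicate 1.

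The median over the 42 genes for CAA under stress was -0.12. It was -0.028 with a sex term, 0.023 in male libraries, and -0.25 to 0.023 with libraries left out in turn (0.023 without CAA stress replicate 1, -0.25 without CAA stress replicate 2). The median interaction of 0.05 became 0.18 with a sex term and 0.19 in males, and ran from -0.081 to 0.084 with libraries left out, lowest without CAA stress replicate 2. For stress in CAA the median of 0.11 ran from -0.050 to 0.19 with libraries left out, lowest without CAA stress replicate 2. The causes were not tested.

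The titles number the replicates but do not say that the numbers pair libraries, and same-numbered libraries deviated together only weakly (correlations -0.27 to 0.14). With the replicate number as a block, 0 receptor genes were called in each of the 7 comparisons, and Grin2d averaged over treatment stood at 0.70 (edgeR adjusted p = 0.721). The share of all genes called with the block is not reported here, so the 0 is not a result about receptor genes. Having 2 libraries a group limits what could be detected, and low counts further limit Gabre and Gabrr2.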
